A study of Mus musculus with 3 samples.

Results

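Of the 56605 distinct non-control probes on the mouse expression array used in this study, 4276 (7.55%) carried no transcript accession and were named only by a chromosome coordinate range on an autosome. These coordinate-named probes were taken as the array's candidate intergenic long non-coding transcripts, and a further 174 probes with ranges on the X chromosome were left out. The files give neither the word intergenic nor a transcript class for them, and no annotation of the array's build, mm9, was used here, so the regions are named below by their coordinates and strand suffix alone. The suffix is F or R, and the files do not spell it out.

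The arrays compared 3 splenic tumours from male mice aged 10 weeks. One came from a p53+/- mouse, heterozygous for the tumour suppressor p53, and the others, numbered 2 and 3, came from LSD1 × p53+/- mice. All 3 tumours therefore shared the p53+/- genotype, and the comparison was of the LSD1 element on that background. Neither the nature of the LSD1 element nor a promoter driving it is given in the labels, nor whether a number stands for an animal or a line. The RNA was total RNA from untreated splenic cells, with 1 array per tumour. The arrays of the p53+/- tumour and tumour 3 shared a slide, and that of tumour 2 was on another. Each value below is therefore 1 array, and the only replication within a genotype is the pair of LSD1 × p53+/- tumours.

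Long intergenic non-coding RNAs are transcripts, usually capped, spliced and polyadenylated, that arise between protein-coding genes. Many are expressed at lower levels and in fewer cell types than messenger RNAs, and some act in chromatin regulation, in enhancer activity or as hosts of small RNAs. LSD1, encoded by Kdm1a, is a histone demethylase that removes methyl groups associated with active promoters and enhancers. p53 is a transcription factor whose known targets include long non-coding RNAs.

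The 3 arrays were of like brightness. The 75th percentile of the processed signal lay between 554 and 712 intensity units, between 51.5% and 55.6% of spots were well above background by the scanner software's own flag, and no spot was saturated. Neither targeted gene reached a 2-fold difference. Kdm1a was 1.56-fold and 1.17-fold higher in LSD1 × p53+/- tumours 2 and 3 than in the p53+/- tumour, with an adjusted p of 0.92, and Trp53 was 1.51-fold and 1.23-fold lower, with an adjusted p of 0.91 (limma, Benjamini-Hochberg over all probes tested). Kdm1a in tumour 3 was on the other side of the p53+/- tumour after quantile normalization, at -0.05 log2, and in the authors' value table, at -0.14. Where those probes lie relative to any altered allele was not tested. The tumours differed in cell type markers. Summed over 8 T cell genes, the level was 58.7 times the array's 75th percentile in the p53+/- tumour, 215 in tumour 2 and 26.3 in tumour 3. For 8 B cell genes it was 287, 40.1 and 151 in the same order, for 8 erythroid genes 153, 110 and 371, and for 8 red pulp macrophage genes 178, 102 and 263. The macrophage genes were mixed in tumour 3 compared with the p53+/- tumour. Cd5l, Spic, Hmox1 and C1qa were higher, by 1.60, 0.79, 0.68 and 0.67 log2. Vcam1, Slc40a1 and Adgre1 were lower, at -0.62, -0.33 and -0.09, and Vsig4 was above background nowhere. Neutrophil genes, with sums of 146, 295 and 274, had 6 of 8 genes at least 2-fold higher in both LSD1 × p53+/- tumours, and splenic stroma genes, with sums of 53.8, 13.3 and 14.9, had 3 of 8 lower. The share of these marker differences in the values below was not tested, and in bulk tissue fewer cells of a type cannot be told apart from less RNA per cell.

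The 4276 probes fell in 3094 regions, of which 2155 had 1 probe, 761 had 2 and 178 had 3 or more, up to 8. The suffix was F for 2143 probes and R for 2132, and 1 probe had none. In 812 regions both suffixes were present on probes of the same coordinate range. Region lengths ran from 62 to 538251 bases with a median of 7328 bases, and the first quartile was 703 bases. Regions overlapping or lying within 50 kb of each other were joined into 1606 loci, 521 of which held a single probe and the largest 19. Chromosome 1 had most probes, 343, and chromosome 19 fewest, 95. Probes of 1 region or locus may share a target, which was not tested, and cannot be taken as independent.

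Fewer of these probes gave a measurable signal than the rest of the array. At least 1 tumour was well above background for 1939 of the 4276 probes (45.3%), against 58.1% of all probes. Probes with a protein-coding RefSeq accession reached 69.8%, and probes with a non-coding RefSeq accession 37.3%. In the individual tumours the numbers of coordinate-named probes well above background were 1685 (39.4%) in the p53+/- tumour, 1566 (36.6%) in tumour 2 and 1491 (34.9%) in tumour 3. The p53+/- tumour also had the highest share over all probes, at 53.6% against 50.7% and 49.3%.

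**Figure D1:**
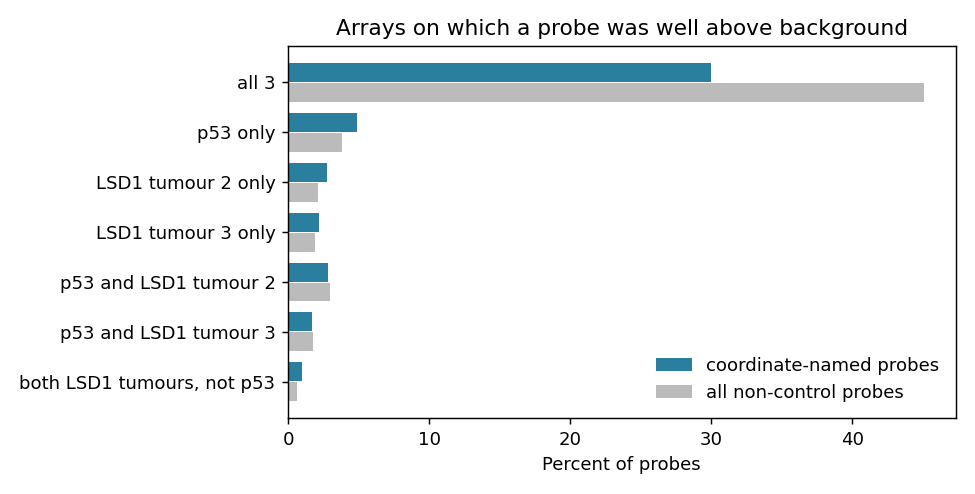
Percent of probes (horizontal axis) by the set of arrays on which they were well above background, for the coordinate-named probes (blue) and all non-control probes (grey). All 3 arrays measured 30.0% of the coordinate-named probes, less than the share of all probes, whereas the bars for a single tumour are slightly longer for the coordinate-named probes.

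Most of the measured probes were measured everywhere. All 3 tumours were well above background for 1283 probes (30.0%, with 45.1% over the array), and for 2337 probes none was (54.7%, with 41.9%). Signal in the p53+/- tumour alone was seen for 208 probes (4.86%, with 3.82% over the array). For tumour 2 alone it was 118 (2.76%, with 2.09%), and for tumour 3 alone 93 (2.17%, with 1.88%). Both LSD1 × p53+/- tumours, but not the p53+/- tumour, were above background for 43 probes (1.01%, with 0.60% over the array). A further 122 probes were measured in the p53+/- tumour and tumour 2 (2.85%, with 2.95%). In the p53+/- tumour and tumour 3 there were 72 (1.68%, with 1.74%). The order of the 3 single-tumour shares was the same over the array. The signals came from 1589 regions and 1052 loci. Detection differed little between the suffixes, at 43.6% for F and 47.0% for R, and was lowest for probes of the shortest regions, at 37.4% in the first length quartile against 46.7%, 48.3% and 49.0% in the longer ones. Where both suffixes were present, 238 of the 812 regions gave signal on both, 157 on F alone, 217 on R alone and 200 on neither. Thus 374 regions gave a measurable signal on 1 suffix only.

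No coordinate-named probe passed a test between the genotypes. With limma on log2 signal relative to each array's 75th percentile, 0 of 1939 tested probes had an adjusted p under 0.05, and over the array the share was 0% of 32905. Without adjustment 95 of the 1939 had a p under 0.05, as had 1488 of the 32905, and the lowest adjusted p was 0.892. A comparison of 1 array with 2 leaves a single residual degree of freedom, and the lone p53+/- array is taken to vary like the others. The counts that follow are therefore by size, at least 2-fold in both LSD1 × p53+/- tumours, and carry no test.

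By that rule 49 probes (2.53%) were higher in both LSD1 × p53+/- tumours than in the p53+/- tumour, where 3.63% of all tested probes were. Lower in both were 155 probes (7.99%), where 7.31% of all tested probes were. Both shares were near that of the array. Among probes measured on all 3 arrays the counts were 32 of 1283 higher (2.49%, with 3.88% over the array) and 54 lower (4.21%, with 4.01% over the array). Of the 49 higher probes 17 had no signal above background in the p53+/- tumour, and of the 155 lower probes 92 had none in either LSD1 × p53+/- tumour. Such differences are bounds, and 92 of the 155 lower probes stayed past 2-fold when the dim side was set no lower than the faintest measurable signal. The higher probes lay in 46 regions and 42 loci, and the lower probes in 150 regions and 126 loci. The suffix was F for 24 and R for 25 of the higher probes, and F for 61 and R for 94 of the lower ones, which is 6.52% of tested F probes and 9.37% of tested R probes. Under a model-based background correction (normexp) the counts dropped to 24 higher and 38 lower.

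**Figure D2:**
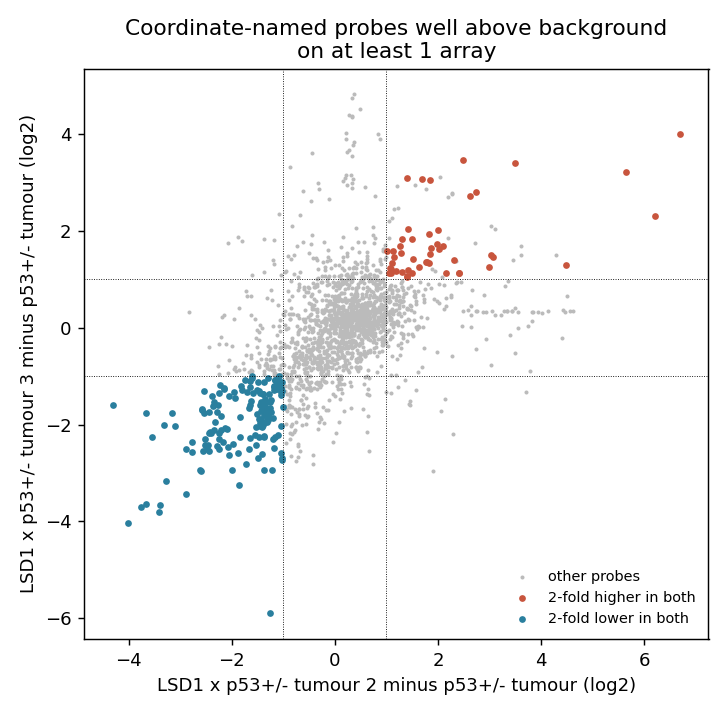
Each point is 1 of the 1939 coordinate-named probes measured on at least 1 array, placed by its log2 difference from the p53+/- tumour in LSD1 × p53+/- tumour 2 (horizontal axis) and tumour 3 (vertical axis), with dotted lines at 2-fold. The 49 probes at least 2-fold higher in both are red, the 155 lower in both are blue, and the narrow rows of grey points beside an axis are probes that were dim in the p53+/- tumour and in 1 of the other tumours.

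The typical coordinate-named probe was near the level of the p53+/- tumour, on a side that varied with the scaling. Over the 1939 tested probes the median log2 difference from the p53+/- tumour was 0.19 in tumour 2 and 0.07 in tumour 3, where all tested probes gave 0.02 and 0.07. In the authors' value table the same medians were -0.03 and -0.30, and -0.19 and -0.29 for all tested probes. Probes that were above background nowhere had medians of 0.28 and 0.30, as did such probes over the whole array. The standard deviation of the differences across probes was 1.13 and 1.1, against 1.11 and 1.19 over the array. Between both LSD1 × p53+/- tumours it was 1.1, against 1.22 over the array.

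Among the higher regions, the widest shared difference was at chr12:52950465-52950990, R suffix. Its log2 signal relative to the array's 75th percentile was -5.56 in the p53+/- tumour, not above background, 1.14 in tumour 2 and -1.55 in tumour 3. Both LSD1 × p53+/- tumours were thus measurable and the p53+/- tumour was not, a difference of at least 41.3-fold and at least 6.40-fold. At chr5:92548501-92566401 (F) the values were -5.44, 0.19 and -2.22, at least 21.4-fold and at least 4.03-fold higher. At chr5:104936417-104984892 (R) the values were -5.15, 1.05 and -2.85, at least 38.8-fold and at least 2.59-fold higher. In these 3 regions tumour 2 was well above tumour 3, so the size of the difference was not shared. Tumour 3 was the higher at chr12:77550684-77551505 (F), with -4.57, -2.08 and -1.10, at least 4.44-fold and at least 8.73-fold higher. At chr4:89088538-89130181 (F) the tumours were close, at -6.20, -2.70 and -2.81, at least 2.89-fold and at least 2.68-fold. The remaining regions known only by bounds among the 10 highest, chr8:94841965-94881130 (R) and chr7:67001975-67050575 (F), could be placed only as at least 1.88-fold and 1.37-fold higher in tumour 2, and at least 1.97-fold and 1.46-fold higher in tumour 3.

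Higher probes measured on every array gave folds rather than bounds. At chr15:8463685-8494960 (R) the log2 signal was -2.77 in the p53+/- tumour, -0.77 in tumour 2 and -0.74 in tumour 3, or 3.98-fold and 4.07-fold higher. At chr14:115423660-115463160 (R) it was -0.75, 1.09 and 2.32, or 3.58-fold and 8.35-fold higher. At chr14:33923944-34003394 (F) it was 0.49, 3.55 and 1.96, or 8.36-fold and 2.77-fold higher. The LSD1 × p53+/- tumours matched each other in the first region and stood apart from each other in the others, in opposite order. At chr14:22267795-22319045 (F) it was 2.00, 4.02 and 3.64, or 4.05-fold and 3.11-fold higher. At chr5:35893909-35899497 (F) the values were -0.13, 1.97 and 1.57, or 4.27-fold and 3.24-fold higher. The remaining regions of the leading 10, chr15:61984389-62102500 (F), chr10:66349796-66378261 (R), chr1:162965309-162970704 (F), chr17:35080914-35090009 (F) and chr6:134879009-134880130 (F), were between 2.81-fold and 3.92-fold higher in tumour 2 and between 2.89-fold and 3.81-fold higher in tumour 3.

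Among the lower regions, chr9:89167172-89168980 (F) had the widest difference between measured signals. Its log2 signal was 4.70 in the p53+/- tumour, 1.29 in tumour 2 and 0.90 in tumour 3, so the RNA was 10.6-fold and 13.96-fold lower. This probe remained above the array's 75th percentile in all 3 tumours. At chr8:26212577-26218527 (R) the values were 1.85, -1.47 and -0.17, or 9.97-fold and 4.04-fold lower. At chr2:174428737-174439062 (R) they were -0.65, -3.27 and -3.60, or 6.15-fold and 7.72-fold lower. A pair of overlapping F regions on chromosome 10 were low together: chr10:93774693-93893616 with 1.23, -1.36 and -1.73, and chr10:93819821-93976621 with 0.66, -1.77 and -1.88. In folds they were 6.01 and 7.78 lower, and 5.41 and 5.82 lower. The LSD1 × p53+/- tumours were close to each other in both. The other measured regions of the leading 10 were chr4:3746945-3747603 (F), chr4:3437474-3438228 (R), chr4:136856064-136875614 (R), chr1:161992257-161992963 (F) and chr19:21653968-21671718 (R), between 3.58-fold and 5.4-fold lower in tumour 2 and between 3.36-fold and 5.25-fold lower in tumour 3.

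**Figure D3:**
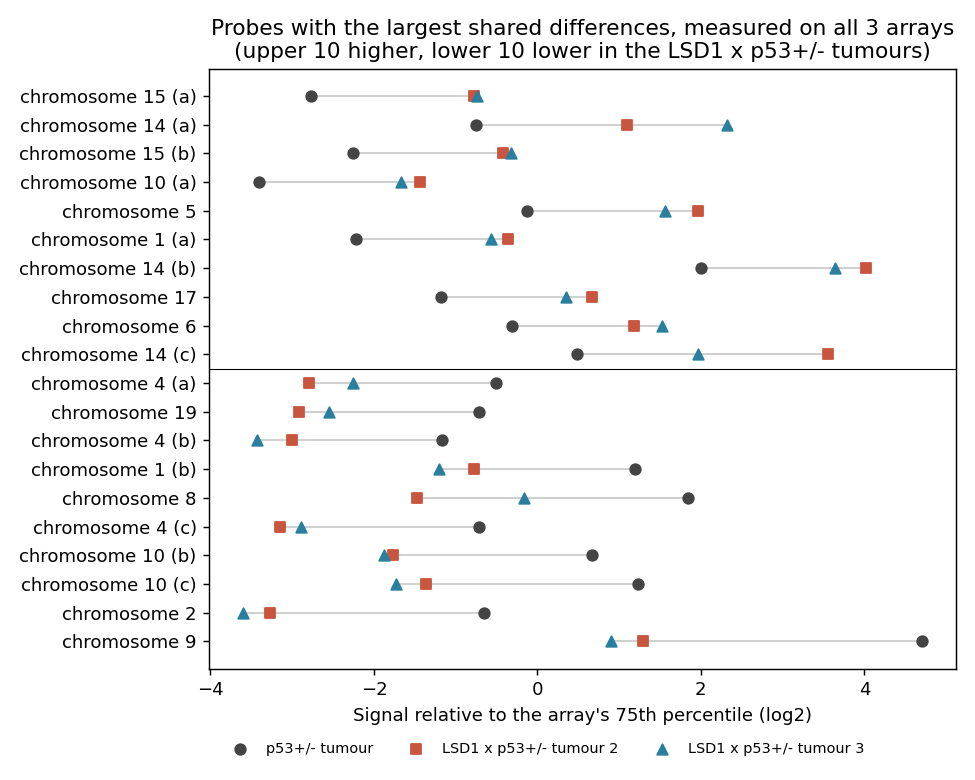
Log2 signal relative to the array's 75th percentile (horizontal axis) in the p53+/- tumour (circles), LSD1 × p53+/- tumour 2 (squares) and tumour 3 (triangles) for the 10 coordinate-named probes with the largest shared difference in each direction among those measured on all 3 arrays, with no error bar since each point is 1 array. The LSD1 × p53+/- tumours mostly lie close together, and apart from each other at chromosome 14 (a), chromosome 14 (c) and chromosome 8.

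Other lower probes were measured in the p53+/- tumour alone. At chr3:51804655-51805883 (R) the log2 signal was -1.50 there and -4.38 and -4.93 in tumours 2 and 3, at least 5.11-fold and at least 5.16-fold lower. At chr7:35405125-35415223 (F) it was -2.10, -6.11 and -6.13, at least 3.38-fold and at least 3.41-fold lower. The regions chr3:19211659-19213735, chr15:75865380-75876541, chr15:74507625-74519200, chr3:37659958-37665945 and chr14:8792433-8792567, all F, were at least 2.22-fold to 3.46-fold lower in tumour 2 and at least 2.24-fold to 3.49-fold lower in tumour 3. These probes were dim in the p53+/- tumour too, and only small bounds could be given.

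Other probes of the named regions often did not follow. Of 44 named regions 14 had another tested probe, 11 of them in the higher or lower lists. In regions named as higher 1 of 10 other probes was also past 2-fold in both tumours, and in regions named as lower 1 of 3. Most of these other probes carried the opposite suffix, so few repeated the named measurement. The named suffix was shared only by second F probes at chr14:22267795-22319045 and chr15:61984389-62102500, and neither was past 2-fold in both. In the lower regions the probe past 2-fold, chr4:136856064-136875614 (F), was at -3.98, -5.93 and -5.30, too dim for a bound to be given. These counts took only probes of the exact coordinate range. The region chr4:136856064-136877219, with the same start and a later end, was nearly level on both suffixes. Its R probe was at 5.28, 5.14 and 5.20, and its F probe at -2.55, -2.59 and -2.36. At chr14:22267795-22319045 a second F probe was at 1.67 in the p53+/- tumour, 1.34 in tumour 2 and 1.36 in tumour 3, slightly lower where the first was higher. At chr7:35405125-35415223 the R probe was at -3.35, -2.21 and -3.27, and at chr8:26212577-26218527 the F probe was at -1.05, -0.13 and -1.25, so in neither was it lower in both. At chr5:104936417-104984892 the F probe was lower where the R probe was higher, at -2.84, -3.53 and -3.84. Within chr5:92548501-92566401, chr5:92556322-92558910 (F) was at 0.23, -0.56 and 1.34, with tumour 2 the lowest. The overlapping chr5:92563184-92566678 (R) was at -3.89, -4.87 and -3.63, with tumour 2 not above background.

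Regions near each other were sometimes low or high together. A locus held 2 or more higher probes in 6 cases and 2 or more lower probes in 20, out of 494 loci with at least 2 tested probes. The loci described here were chosen after their values were seen. All 3 tested probes were lower at chr4:3406175-3443875, with log2 differences of -2.54 to -2.29 in tumour 2 and -1.75 to -1.32 in tumour 3. The F probe among them was not above background in tumour 2, and was at least 2.88-fold lower there. All 3 tested probes, each F, were also lower at chr1:161969026-162001640, with -1.98 to -1.39 and -2.39 to -1.09. A probe among them, at -2.96, -4.35 and -4.34, was above background in the p53+/- tumour only. It could be placed only as at least 1.86-fold and at least 1.88-fold lower. Of the 12 combinations of region and suffix with at least 3 measured probes, 0 had every probe 2-fold apart in one direction in both tumours.

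Neighbouring probes of opposite suffix did not always lie on the same side. At chr17:15100982-15115630 both R probes were higher in the LSD1 × p53+/- tumours, by 1.28 to 1.52 log2 in tumour 2 and 1.42 to 1.55 in tumour 3. The overlapping F region chr17:15111725-15139800 was lower, at -0.98 in the p53+/- tumour, -2.29 in tumour 2 and -2.92 in tumour 3. At chr14:115423660-115463160 the R probe was higher, as given above, whereas the F probe was at 2.17, 2.50 and 2.47, nearly level. Within that locus chr14:115443612-115445950 (F) was at 1.0, 2.41 and 4.09, so F probes differed from one another as well. At chr17:35080914-35090009 the F probe and both R probes were all higher in the LSD1 × p53+/- tumours. The R probes were at -1.92, -0.16 and -0.57, and at 0.68, 1.65 and 2.10. At chr15:61984389-62102500 one F probe was higher in both, as given above, a second F probe was at -2.69, -1.83 and -2.29, under 2-fold in each, and the R probe was above background in tumour 3 alone, at -5.63, -6.07 and -2.03.

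Probes also differed between both tumours of the LSD1 × p53+/- genotype, whose arrays were on different slides. Tumour 2 was at least 2-fold above tumour 3 for 265 coordinate-named probes (13.7%), with 12.4% over the array. Tumour 3 was above tumour 2 for 183 probes (9.44%), with 12.7% over the array. Among probes measured on all 3 arrays the counts were 103 (8.03%, with 7.94% over the array) and 68 (5.30%, with 10.2% over the array). The dimmer tumour was not above background for 154 of the 265 probes and for 114 of the 183. Normexp background correction lowered both counts by over 1.5 times, to 75 and 80. Against the p53+/- tumour singly, tumour 2 was higher for 264 probes (13.6%, with 11.9% over the array) and lower for 254 (13.1%, with 13.2%), and tumour 3 was higher for 218 (11.2%, with 14.1%) and lower for 301 (15.5%, with 15.4%).

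The regions leading these lists were measured in a single LSD1 × p53+/- tumour. At chr1:69531191-69570566 (R) the log2 signal was -1.80 in the p53+/- tumour, 0.10 in tumour 2 and -4.76 in tumour 3, at least 15.7-fold higher in tumour 2 than in tumour 3. At chr1:88187397-88187862 (R) it was 0.80, -0.45 and -5.10, at least 10.7-fold higher in tumour 2. Both regions were measured in the p53+/- tumour as well, so tumour 3 was the one apart. At chr12:82457625-82476325 (R), with -4.51, -0.80 and -5.83, tumour 2 was apart, at least 8.37-fold above tumour 3. The overlapping F regions chr10:83181374-83249774 and chr10:83185606-83225506 were at least 5.81-fold and at least 5.42-fold higher in tumour 2. In the other direction, chr17:38132217-38157667 (F), chr12:55401761-55418611 (F), chr15:92174226-92201201 (F), chr13:66381200-66410200 (R) and chr7:134807861-134809001 (R) were above background in tumour 3 alone, and at least 3.40-fold to 5.41-fold above tumour 2. The second of these regions had R probes on the other side. Within chr12:55401761-55418611, 2 R probes had values 2.32 to 3.10 log2 higher in tumour 2 than in tumour 3, not held to a bound. The R probe of that exact range, at -4.40, -3.42 and -5.74, was not above background in tumour 3. It could be placed only as at least 1.37-fold higher in tumour 2.

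A locus on chromosome 1, chosen after its values were seen, held the largest block of probes apart between the LSD1 × p53+/- tumours. Within chr1:139713316-139913366, 6 of 7 tested probes were at least 2-fold higher in tumour 2 than in tumour 3. All 5 F probes there were measured in every tumour. At chr1:139822286-139822985 the log2 signal was -0.26 in the p53+/- tumour, 3.28 in tumour 2 and -0.28 in tumour 3. At chr1:139795171-139796306 it was -1.81, 1.58 and -1.97, and at chr1:139847592-139848243 it was -2.82, 0.68 and -3.34. The p53+/- tumour and tumour 3 were thus at nearly the same level, and tumour 2 stood 7.63-fold to 13.4-fold above the p53+/- tumour at the 5 F probes. The remaining F regions gave -2.50, 0.43 and -2.72 at chr1:139806645-139809498, and -2.41, 1.34 and -2.37 at chr1:139856545-139857204. An R probe at chr1:139814266-139817889 was above background in tumour 2 alone, with -6.49, -2.21 and -5.0. The R probe of the region that spans the whole locus was level, at -1.88, -1.57 and -1.83. Tumour 2 was also the highest in the T cell genes, whose summed levels were 58.7, 215 and 26.3 times the 75th percentile. Tumour 2 was also the only array on its slide. The part of the T cell genes or of the slide in the values of this locus was not tested.

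**Figure D4:**
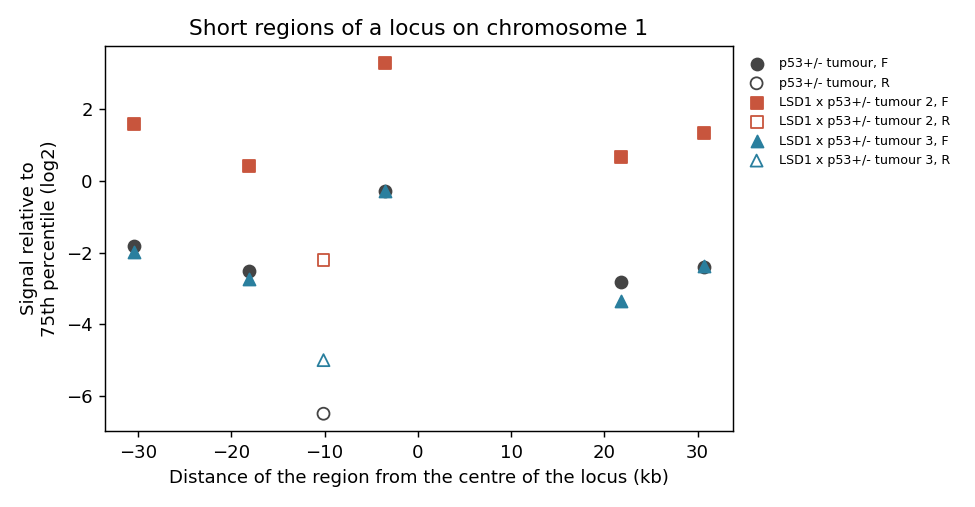
Log2 signal relative to the array's 75th percentile (vertical axis) at the 6 short coordinate-named regions of the chromosome 1 locus, by distance from the centre of the stretch they cover (horizontal axis, kb), with filled symbols for F and open symbols for R probes. LSD1 × p53+/- tumour 2 (squares) lies above the p53+/- tumour (circles) and tumour 3 (triangles) at every region, and the open circle and triangle were not above background.

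Tumour 3 was the higher at chr5:96591892-96606467, where 4 probes of 1 region, 3 F and 1 R, were all at least 2-fold above tumour 2. The F probes were at 1.18, 0.76 and 2.03, at 3.05, 2.53 and 3.78, and at 2.08, 1.38 and 2.92 in the p53+/- tumour, tumour 2 and tumour 3. The R probe was at -2.07, -2.79 and -1.30. In each of them tumour 2 was the lowest and tumour 3 the highest, with the p53+/- tumour between.

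How far neighbouring probes moved together was described over pairs of coordinate-named probes measured on all 3 arrays. Pairs in 1 region with the same suffix were the most alike. Over 81 such pairs the log2 differences from the p53+/- tumour had a Pearson r of 0.55 in tumour 2 and 0.52 in tumour 3, and the median gap between the 2 probes was 0.27 and 0.20 log2. Pairs in 1 region with opposite suffixes, 148 in number, had an r of 0.17 and 0.13 and median gaps of 0.65 and 0.56. Probes spotted repeatedly on an array had a median standard deviation of 0.0387 to 0.0419 log2 over their spots where well above background. That is a spread of signals on 1 array and not of differences, so it is not the same measure as the gap. Only 5 of the repeated probes were coordinate-named.

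Likeness was lower between regions and near 0 beyond 500 kb. For overlapping regions r was 0.39 and 0.20 with the same suffix (169 pairs) and 0.09 in both tumours with opposite suffixes (131 pairs). For regions within 50 kb it was 0.68 and 0.15 with the same suffix (111 pairs), but without the chromosome 1 locus described above it was 0.22 and 0.15 (103 pairs). Regions between 50 and 500 kb apart gave 0.22 and 0.18 (320 pairs) with the same suffix, and 0.05 and 0.14 with opposite suffixes (286 pairs). At those larger distances r lay between -0.02 and 0.02. These correlations are across pairs on the same 3 arrays and share the p53+/- array in both tumours. Probes recur in several pairs, and whether 2 probes of a region overlap in sequence was not tested.

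**Figure D5:**
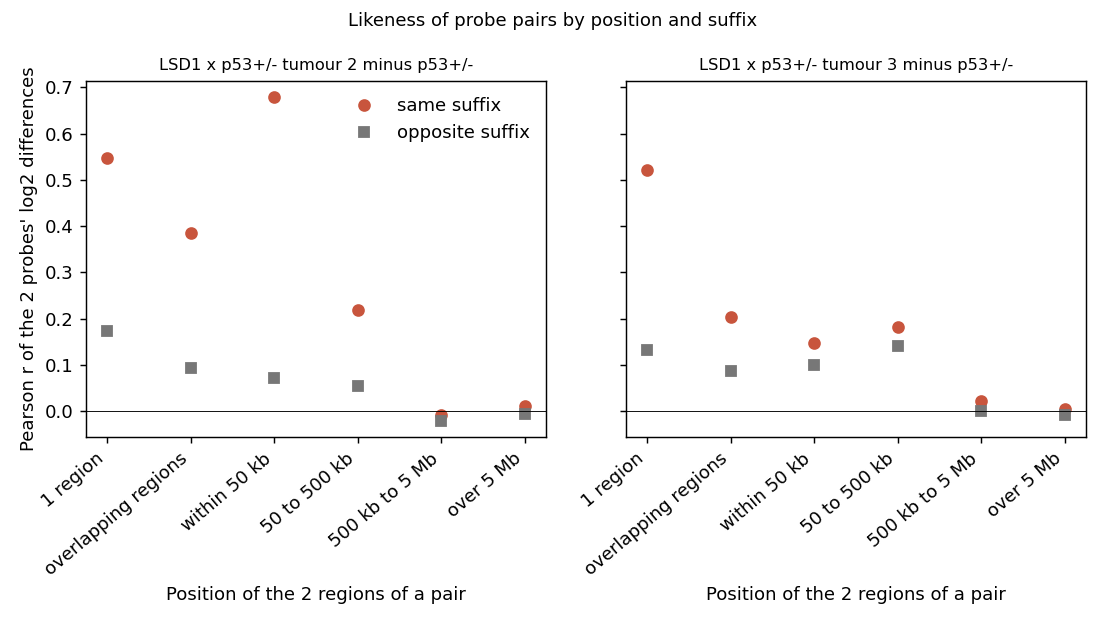
Pearson r (vertical axis) of the log2 differences from the p53+/- tumour between both probes of a pair, by the position of their regions (horizontal axis), for LSD1 × p53+/- tumour 2 (left) and tumour 3 (right), with circles for pairs of the same suffix and squares for opposite suffixes. Pairs of 1 region and the same suffix reach 0.55 and 0.52, and the value of 0.68 at up to 50 kb in tumour 2 drops to 0.22 without 1 locus.

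Chromosomes differed in how the probes were placed. Measured share ran from 33.6% of coordinate-named probes on chromosome 3 to 54.6% on chromosome 17. On 18 of the autosomes the median log2 difference of probes measured on all 3 arrays was above 0 in both tumours, between 0.11 and 0.35 in tumour 2 and between 0.01 and 0.26 in tumour 3. Chromosome 18 was lowest, at -0.27 and -0.19 over 36 probes. The sign of these medians followed the scaling: on the scale of the authors' values 14 of the 18 were above 0 in tumour 2 and 0 in tumour 3, and chromosome 18, at -0.48 and -0.55, was lowest there too, as it was after normexp and quantile normalization. There 13 of 68 tested probes (19.1%) were lower in both LSD1 × p53+/- tumours and 0 were higher. On the other chromosomes the share of lower probes ran from 1.14% to 13.8%. Of the 13, 3 loci with 2 or more lower probes held 10. The largest held 6, all F, and without it the chromosome's medians were -0.18 and -0.06 over 32 probes. The share of higher probes was largest on chromosome 17, at 9 probes (6.62% of those tested).

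Named long non-coding genes on the same arrays gave a comparison. Of 61 listed genes 46 were on the array and 35 were tested. Of the 35, 4 were at least 2-fold higher in both LSD1 × p53+/- tumours and 2 lower. The shares over all tested probes, counted by probe and not by gene, were 3.63% and 7.31%. By limma 0 of the 35 had an adjusted p under 0.05, and 3 had an unadjusted p under 0.05. The list's median log2 difference was 0.06 in tumour 2 and 0.46 in tumour 3. Pvt1, a non-coding gene beside Myc, was at -0.77 in the p53+/- tumour, 1.03 in tumour 2 and 1.06 in tumour 3, or 3.48-fold and 3.56-fold higher. Mirg, a microRNA host gene of the imprinted Dlk1-Meg3 cluster, was not above background in the p53+/- tumour, and was at least 9.92-fold and at least 1.68-fold higher. Its place among the 4 higher genes thus rests on a dim value, since its bound in tumour 3 is under 2-fold. Miat was measured in tumour 3 alone, at -6.22, -4.75 and 0.57, at least 27.8-fold above the p53+/- tumour. Lncpint, which is known as a p53 target, was 2.35-fold and 6.72-fold lower. The other genes past 2-fold in both tumours, named after their values were seen, were Lockd, 2.73-fold and 3.17-fold higher, Snhg6, 2.32-fold and 2.14-fold higher, and Peg13, 3.12-fold and 3.49-fold lower. Each of these 7 genes had an adjusted p of 0.892 (limma).

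The balance of higher and lower probes varied with the scaling. Higher probes made up 24.0% of those past 2-fold in both tumours here, but 38.7% after normexp, 9.70% in the authors' value table and 13.7% when each array was scaled to the 75th percentile of the coordinate-named probes alone. Past 2-fold in every one of normexp, quantile normalization and the authors' table were 17 of the 49 higher probes and 38 of the 155 lower ones, and 74 of 265 and 76 of 183 between the LSD1 × p53+/- tumours. The authors' table differs from the scale used here by a constant for each tumour, -0.21 log2 in tumour 2 and -0.36 in tumour 3.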

How the data were processed

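The deposited scanner files hold, per the file headers, the processed intensity of each spot (background-subtracted by Agilent Feature Extraction 11.5.1.1 and not scaled between arrays), its median signal and local background, and flags. The authors' value table is also an intensity, proportional to the processed signal within each array, on a basis not given in the sources used here. Control spots were dropped, outlier spots were dropped unless the probe had no other spot, and repeated spots of a probe were averaged. Values were scaled to each array's 75th percentile over non-control spots and taken to log2. Testing covered probes with a well-above-background flag on any array. All tested probes were fitted together with limma 3.58.1 in R 4.3.3, comparing 1 array with 2, and Benjamini-Hochberg adjusted with a threshold of 0.05. A run on simulated data required only that median estimates lay near the changes put in. That does not show how many real changes the fit could call. The labels do not say that samples of a group are more than single animals, and the number of arrays limits precision.

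A fold involving a signal not well above background is written "at least N-fold", from the array's lowest measurable level or the probe's own value, whichever is higher. Differences in log2 are given as they stand. Named regions are the 10 highest and 10 lowest probes by the smaller of both tumours' differences, the same among probes measured on all 3 arrays, and the 5 highest in each LSD1 × p53+/- tumour over the other; regions on chromosome 18 are counted and not named. Regions, lists and rules were chosen with earlier results of these data known. Gene names came from RefSeq tables, which matched 32989 of the probes and not 23616. No genome of the array's build was used, so no sequence or gene context is given. Alternatives were normexp (offset 50), quantile normalization, the authors' table, other filters, folds and scalings, and leaving out an array.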

Additional observations from a re-analysis of the deposited data

How the results depend on the processing

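Against 49 higher and 155 lower probes, normexp gave 24 and 38, the authors' values 26 and 242, a filter on all 3 arrays 32 and 54, a 1.5-fold limit 168 and 295, and a 3-fold limit 15 and 58. Leaving out an LSD1 × p53+/- tumour gave 218 to 264 higher and 254 to 301 lower. Without a filter 104 were higher, and at its bound the lower count was 92. Against 265 and 183 probes higher in tumour 2 or 3, normexp gave 75 and 80, no filter 451 and 354, the all-array filter 103 and 68, the 1.5-fold limit 532 and 317, and the 3-fold limit 118 and 89. By other detection flags 3127 (positive and significant) or 3213 (1.5 times local background) probes were measured in place of 1939. The remaining 21 counts stayed within 1.5 times, and no probe named by the selection rule turned to the other side in the difference it was named for. Small differences did turn in the authors' values, among them 3 nearly level probes of the described loci in tumour 3 (-0.07, -0.32 and -0.32 log2). The cause of these shifts was not tested, apart from filters and limits, which change the probes counted. Probes with an unadjusted p under 0.05 (limma) numbered 65 after normexp, 97 after quantile normalization, 133 in the authors' table, 346 without a filter and 63 on all 3 arrays, against 95, with 0 adjusted calls in each and a lowest adjusted p of 0.466 to 0.895. No paired analysis was possible because the p53+/- tumour carries no replicate number. The p53+/- tumour and tumour 3 shared a slide, so the value with slide as a block is tumour 3's own difference. Dim signal limits most values: 2337 probes were above background nowhere.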
